A study of Sus scrofa with 67 samples.

Results

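PAX7 and the myogenic regulatory factors MYOD1, MYOG and MYF6 were followed in the longissimus dorsi, a back muscle, of Swiss Large White pigs. They are 4 of the 18158 genes in the deposited table. They were picked by symbol and not by a cut on their values, but with earlier results of these data known. All 4 had reads in each of the 67 libraries, with 142 to 6935 counts per gene and library, and all 4 passed the filter on low counts.

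PAX7 is a transcription factor of satellite cells, the stem cells that lie beside muscle fibres. When these cells are activated MYOD1 drives them into the muscle lineage, MYOG (myogenin) takes them through terminal differentiation and fusion, and MYF6 (MRF4) is the factor kept at high levels in mature fibres. MYOG is also raised in fibres that have lost their nerve supply, as known from rodents. MYOD1, MYOG and MYF6 are basic helix-loop-helix proteins that bind E-box motifs together with E-proteins such as TCF3.

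The study asked how a low protein diet after weaning, and lysine supply afterwards, act on muscle. Pigs of both sexes, the males castrated, came from 20 litters and were fed STD, the standard diet, or LP, whose crude protein was cut to 81% (total) and 79% (digestible) of that in STD, during weeks 1 to 4. In weeks 5 to 8 the LP pigs changed to the standard diet, given as such in group LP-STD (n = 12), with digestible lysine raised by 10% in LP-STD10 (n = 12) and by 20% in LP-STD20 (n = 12). Group STD-STD (n = 12) was fed the standard diet throughout. Libraries named for the first-period diets alone form the groups LP (n = 6) and STD (n = 6), and 7 libraries carry the label BL. The labels do not explain BL, so its age and diet are not known, and no label ties a library to a sex, a litter or a sampling week.

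Total counts were 26680567 to 36935497 per library. The 15 skeletal muscle fibre markers analysed, creatine kinase and sarcomere genes among them, summed to 151510 to 398360 CPM (read counts scaled to a fixed library total), so the tissue carried the genes of its label. Library numbers of the 48 second-period pigs come in blocks of 4 from the same group, called runs, and each group has 3 of them. The first runs of the 4 groups fill library numbers 20 to 35, the second runs 36 to 51 and the third runs 52 to 67, and each such block of 16 libraries is called a set below. What a run stands for is not stated. Values are CPM scaled by TMM factors, which are not per gene length, so levels are compared between groups and not between genes. In whole muscle, fewer cells of a type and less RNA per cell cannot be told apart.

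PAX7 lies on chromosome 6 (77160827 to 77268626, Sscrofa11.1, RefSeq) and marks the satellite cells. Its lowest, median and highest levels were 4.24, 6.60 and 8.38 CPM in LP-STD, 5.70, 6.69 and 9.41 CPM in LP-STD10 and 5.70, 8.36 and 9.65 CPM in LP-STD20. They were 5.37, 6.72 and 9.25 CPM in STD-STD, 4.91, 5.60 and 7.37 CPM in LP, 4.95, 7.55 and 8.06 CPM in STD and 4.17, 7.12 and 10.6 CPM in BL. All 7 ranges overlapped, and both the lowest and the highest library of the study were BL libraries. MYOD1, the commitment factor, lies on chromosome 2 (41422522 to 41424236). It had 23.9, 47.2 and 78.5 CPM in LP-STD, 26.0, 36.8 and 54.0 CPM in LP-STD10 and 36.0, 51.6 and 93.9 CPM in LP-STD20 (lowest, median, highest). In the other groups it had 25.2, 48.1 and 76.4 CPM in STD-STD, 38.0, 44.8 and 70.2 CPM in LP, 34.0, 46.3 and 82.0 CPM in STD and 22.8, 50.2 and 67.5 CPM in BL. The medians of 6 groups lay between 44.8 and 51.6 CPM, and that of LP-STD10 lay below them.

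MYOG, the differentiation factor, lies on chromosome 9 (113783233 to 113785312), with PPFIA4 as a neighbour 5460 bases away. Its lowest, median and highest levels were 50.3, 78.5 and 126 CPM in LP-STD, 52.4, 72.9 and 101 CPM in LP-STD10 and 74.4, 98.6 and 122 CPM in LP-STD20. It reached 69.6, 95.4 and 144 CPM in STD-STD, 55.7, 64.4 and 79.4 CPM in LP, 57.0, 71.2 and 90.7 CPM in STD and 49.2, 73.7 and 86.9 CPM in BL. The medians of LP-STD20 and STD-STD lay above the highest library of LP, STD and BL. MYF6, the factor of mature fibres, lies on chromosome 5 (100762918 to 100764771), 7359 bases from MYF5 and inside the span of the locus LOC110260827. With no strand setting stated, reads of overlapping genes cannot be told apart. MYF6 had 40.8, 92.6 and 158 CPM in LP-STD, 60.8, 116 and 243 CPM in LP-STD10 and 41.2, 60.9 and 186 CPM in LP-STD20. It had 39.3, 56.9 and 142 CPM in STD-STD, 40.2, 45.3 and 76.4 CPM in LP, 28.7, 40.8 and 122 CPM in STD and 24.7, 42.6 and 53.7 CPM in BL. Every library of LP-STD10 lay above the highest BL library, though how many of all genes did so was not counted. MYF6 was the most variable of the 4, with a coefficient of variation over all 67 libraries of 55.6%, against 30.8% for MYOD1, 25.0% for MYOG and 20.2% for PAX7.

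**Figure D1:**
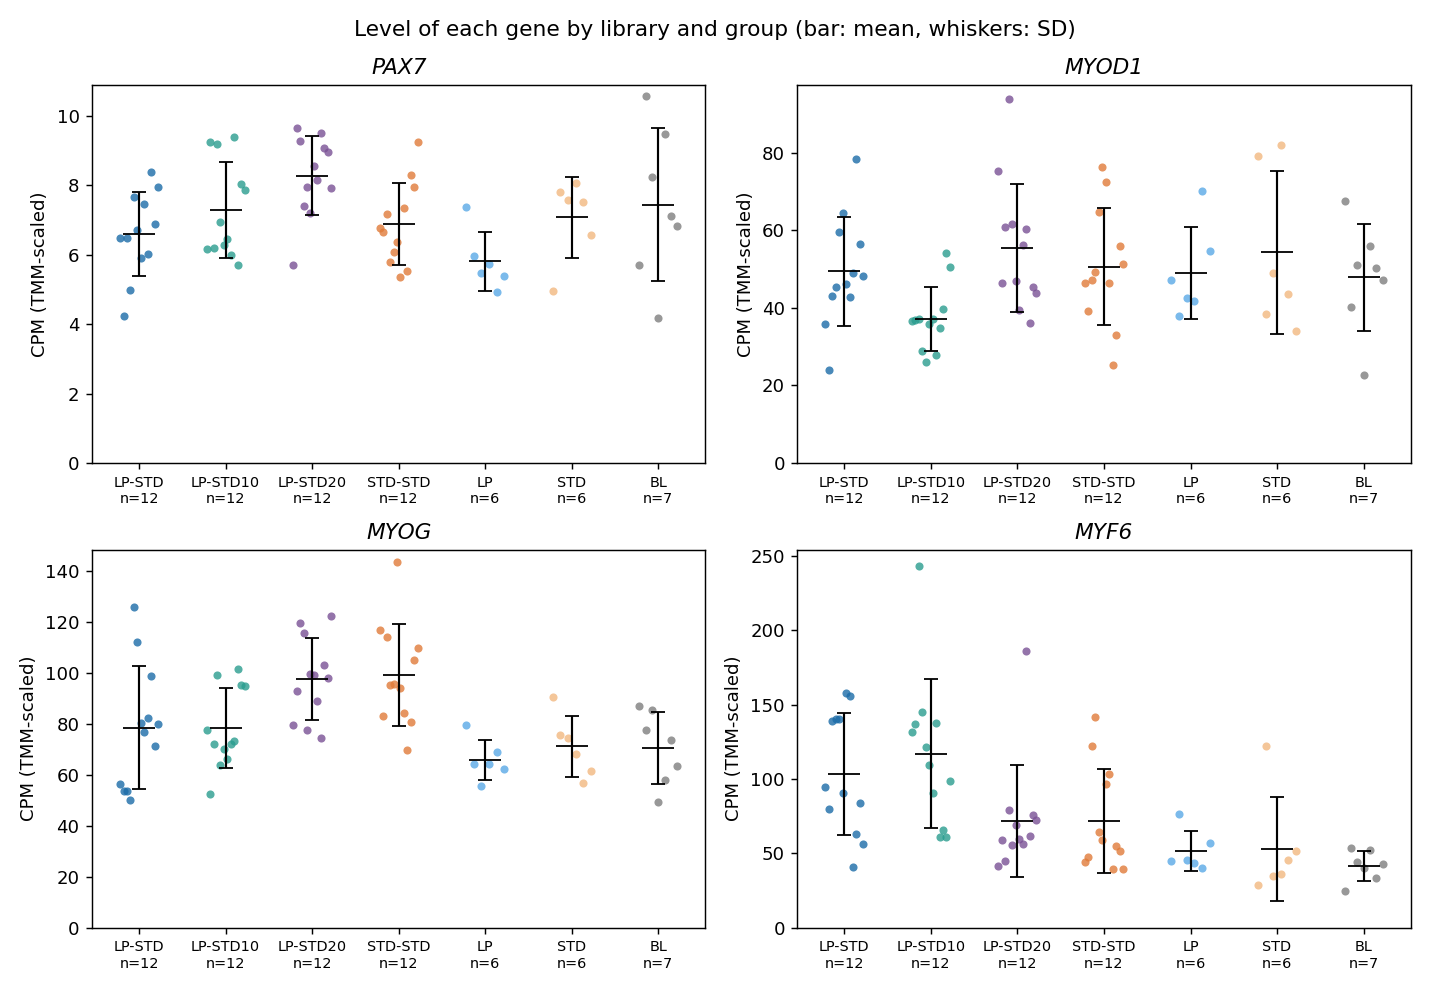
CPM of PAX7, MYOD1, MYOG and MYF6 (y axes from 0) in every library of the 7 groups, with the mean as a bar and the SD as whiskers. MYOG sits highest in LP-STD20 and STD-STD, MYF6 in LP-STD and LP-STD10, and 1 STD library stands apart in MYF6 at 122 CPM.

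When the groups were ranked by mean, no 2 neighbours in the order passed the test for any member (edgeR, fit of 67 libraries, adjusted p 0.139 or higher). In that fit 0.0074% of all genes passed between LP-STD and STD-STD and between LP and STD, 0.0296% between LP-STD20 and LP-STD, 0.0814% between LP-STD10 and LP-STD, and 0% to 36% between the other neighbours. PAX7 ran from LP-STD20 through BL, LP-STD10, STD, STD-STD and LP-STD down to LP, and its highest and lowest groups averaged 8.28 ± 1.15 CPM in LP-STD20 and 5.81 ± 0.85 CPM in LP (SD). They differed by 0.51 ± 0.14 (log2 ± SE, adjusted p = 0.00553, 10 of 12 LP-STD20 libraries above the highest LP library), where 21.6% of all genes passed. MYOD1 ran from LP-STD20 through STD, STD-STD, LP-STD, LP and BL to LP-STD10. Its ends averaged 55.5 ± 16.5 CPM in LP-STD20 and 37.1 ± 8.30 CPM in LP-STD10 and did not pass (0.58 ± 0.17, adjusted p = 0.941, with 0% of all genes past the threshold in that fit). MYOG ran from STD-STD through LP-STD20, LP-STD, LP-STD10, STD and BL to LP. STD-STD averaged 99.3 ± 20.0 CPM and LP 65.9 ± 7.92 CPM (0.59 ± 0.15, adjusted p = 0.00318, where 22.1% of all genes passed). MYF6 ran from LP-STD10 through LP-STD, STD-STD, LP-STD20, STD and LP to BL. LP-STD10 averaged 116.9 ± 50.1 CPM and BL 41.6 ± 10.2 CPM (1.49 ± 0.30, adjusted p = 8.54e-05, where 33.4% of all genes passed). These end groups were picked for their means, so their differences describe the order and are no further support for it.

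Of the 21 pairs of groups, PAX7 passed in 1, MYOD1 in 0, MYOG in 6 and MYF6 in 8. MYOD1 had a lowest adjusted p of 0.0509. The MYOG pairs were STD-STD and LP-STD20 each against LP, STD and BL, by 0.46 to 0.59 on the log2 scale. The MYF6 pairs were LP-STD and LP-STD10 each against LP, STD and BL (0.96 to 1.49), and LP-STD20 and STD-STD each against BL (0.79 ± 0.29 for both, adjusted p = 0.0279 and 0.0268). All 15 lay between a second-period group and a first-period or BL group, and none lay between 2 second-period groups or among LP, STD and BL. Of all genes 21.6%, 16.5% and 36% passed in LP-STD20 against LP, STD and BL, and 22.1%, 15.9% and 35.5% in STD-STD against them. In LP-STD against LP, STD and BL 17.8%, 9.67% and 31.7% passed, and in LP-STD10 against them 18.9%, 15.3% and 33.4%. Calls of members against BL thus stand where 31.7% to 36% of all genes were called. These tests take the second-period libraries of a group as independent, though they come in runs. MYOG in STD-STD against STD and MYF6 in LP-STD against LP were repeated with counts summed over runs. Both lost their call (edgeR, adjusted p = 0.093 and 0.102). The other passing pairs were not repeated in this way.

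LP libraries were compared with STD libraries to ask about the low protein diet itself. No member passed. PAX7 came to -0.29 ± 0.14 for LP over STD (95% interval -0.58 to 0.00, adjusted p = 0.554), and all 6 LP libraries lay below the STD median. Differences for LP over STD were -0.15 ± 0.23 for MYOD1 (-0.66 to 0.36), -0.11 ± 0.11 for MYOG (-0.36 to 0.13) and -0.05 ± 0.33 for MYF6 (-0.78 to 0.68). Over all 12584 genes edgeR called 0 (0%), while 1139 (9.05%) had an unadjusted p under 0.05, DESeq2 called 130 and limma voom 1. STD replicate 2 held 122 CPM of MYF6, the other 5 STD libraries lying between 28.7 and 51.6 CPM. Without that library the MYF6 difference was 0.38 ± 0.19 for LP over STD (edgeR, adjusted p = 0.614). The same library held 1385 CPM of XIRP1, an actin-binding protein of the fibre's attachment sites, against 78.1 to 363 CPM in the other STD libraries. Its PAX7, MYOD1 and MYOG levels lay within the range of the other STD libraries.

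Against BL, 0 of the 4 members passed in LP or in STD, where 6.46% and 6.70% of genes passed. PAX7 differed from BL by -0.36 ± 0.15 in LP (interval -0.66 to -0.05, adjusted p = 0.149) and by -0.07 ± 0.15 in STD. MYF6 lay higher in LP by 0.30 ± 0.33 and in STD by 0.35 ± 0.33, with intervals that include 0 (-0.35 to 0.96 and -0.31 to 1.01). Without STD replicate 2 the MYF6 difference of STD from BL was -0.08 ± 0.33 (edgeR). MYOD1 and MYOG differed from BL by 0.18 or less in size in both groups.

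LP-STD was compared with STD-STD to ask what the first diet left behind when both groups ate the standard diet. None of the 4 passed, and neither did any of the 13032 genes by edgeR (0%; 1319 or 10.1% had an unadjusted p under 0.05, and DESeq2 called 7). PAX7 (-0.07 ± 0.10, interval -0.27 to 0.14) and MYOD1 (-0.04 ± 0.16, -0.36 to 0.28) were near 0. MYOG averaged 78.5 ± 24.1 CPM in LP-STD and 99.3 ± 20.0 CPM in STD-STD (-0.34 ± 0.13, interval -0.60 to -0.09, adjusted p = 0.348). Within sets the log2 ratio of the MYOG means of LP-STD over STD-STD was -0.93 in the first, -0.08 in the second and -0.13 in the third. Without the first LP-STD run the MYOG difference was -0.13, and without the second it was -0.54 (adjusted p = 0.0401). MYF6 averaged 103.5 ± 41.1 CPM in LP-STD and 72.0 ± 35.0 CPM in STD-STD (0.52 ± 0.25, interval 0.01 to 1.02, adjusted p = 0.476). MYF6 was higher in LP-STD in all 3 sets, by 0.35, 0.75 and 0.40.

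More lysine was compared with the standard diet among pigs from the LP diet. For LP-STD10 over LP-STD no member passed (0.407% of genes passed). MYOD1 averaged 37.1 ± 8.30 CPM in LP-STD10 and 49.4 ± 14.1 CPM in LP-STD (-0.41 ± 0.16, interval -0.73 to -0.09, adjusted p = 0.233), and it was lower in all 3 sets (-0.09, -0.75 and -0.37). Only 2 of 12 LP-STD10 libraries lay above the LP-STD median of MYOD1. PAX7 (0.15 ± 0.10) and MYF6 (0.18 ± 0.25) had intervals that include 0, and that of MYOG was -0.26 to 0.26. MYOG changed sign between sets, at 0.49, -0.54 and 0.13.

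For LP-STD20 over LP-STD no member passed either (0.046% of genes passed, 6 of 13032). PAX7 averaged 8.28 ± 1.15 CPM in LP-STD20 and 6.60 ± 1.2 CPM in LP-STD (0.33 ± 0.10, interval 0.13 to 0.54, adjusted p = 0.141). It lay above the LP-STD median in 11 of 12 LP-STD20 libraries and was higher in all 3 sets (0.53, 0.20 and 0.28). With limma voom and quality weights, which called 411 genes here, PAX7 passed (0.34, adjusted p = 0.0484). The 20 satellite cell genes analysed, PAX7 and MYF5 among them, summed to 701.5 to 898 CPM (median 802) in LP-STD20 and 637 to 855 CPM (median 734) in LP-STD. None of the 19 tested passed, and their median difference was 0.14, against 0.01 over all genes. MYOG lay higher in LP-STD20 (0.32 ± 0.13, adjusted p = 0.215) and MYF6 lower (-0.52 ± 0.25, adjusted p = 0.299). Within sets MYOG ran 0.93, -0.11 and 0.26, and MYF6 -1.02, -1.17 and 0.70, so neither kept its sign in all 3. Without the second LP-STD run MYOG passed (0.51, adjusted p = 0.0281). Over the runs left out in turn it lay between 0.10 and 0.51 (edgeR, adjusted p 0.0281 to 0.876), so that pass depends on the run chosen. MYOD1 was 0.17 ± 0.16 higher.

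LP-STD20 against LP-STD10 gave the largest second-period differences of MYOD1 and MYF6 among the 6 comparisons run, and no gene passed by edgeR (0%; 727 or 5.58% had an unadjusted p under 0.05, and DESeq2 called 3). MYOD1 averaged 55.5 ± 16.5 CPM in LP-STD20 and 37.1 ± 8.30 CPM in LP-STD10 (0.58 ± 0.16, interval 0.26 to 0.90, adjusted p = 0.634). Of the 12 LP-STD20 libraries 6 lay above the highest LP-STD10 library, and the ratio within sets was 0.99, 0.68 and 0.05. Without the third LP-STD10 run MYOD1 passed (0.74, adjusted p = 0.0402). Over the runs left out in turn it lay between 0.39 and 0.74 (edgeR, adjusted p 0.0402 to 0.999), so that pass depends on the run chosen. MYOG was 0.32 ± 0.13 higher in LP-STD20 and higher in all 3 sets (0.44, 0.42 and 0.12). MYF6 came to -0.70 ± 0.25 (interval -1.2 to -0.2, adjusted p = 0.835), with -1.55 and -0.93 in the first 2 sets and 0.47 in the third. PAX7 was 0.19 ± 0.10 higher, in all 3 sets. So LP-STD10 lay below LP-STD20 in the means of PAX7, MYOD1 and MYOG and above it in MYF6, with no passing test.

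Against STD-STD the members of LP-STD10 (0.399% of genes passed) and LP-STD20 (0%; 1165 or 8.94% had an unadjusted p under 0.05, and DESeq2 called 19) did not pass. LP-STD10 over STD-STD was -0.45 ± 0.16 for MYOD1, -0.35 ± 0.13 for MYOG and 0.69 ± 0.25 for MYF6 (adjusted p 0.189 to 0.212), with PAX7 at 0.08 ± 0.10. MYF6 was higher in LP-STD10 in all 3 sets (0.88, 0.51 and 0.63), and passed without the third LP-STD10 run (0.95, adjusted p = 0.0362). Over the runs left out in turn it lay between 0.37 and 0.95 (edgeR, adjusted p 0.0362 to 0.63). LP-STD20 over STD-STD was 0.27 ± 0.10 for PAX7 (adjusted p = 0.408, higher in all 3 sets) and 0.13 ± 0.16 for MYOD1. For MYOG the interval was -0.28 to 0.23, and for MYF6 it was -0.51 to 0.50. The 6 second-period comparisons share libraries, so their values are not independent of each other.

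**Figure D2:**
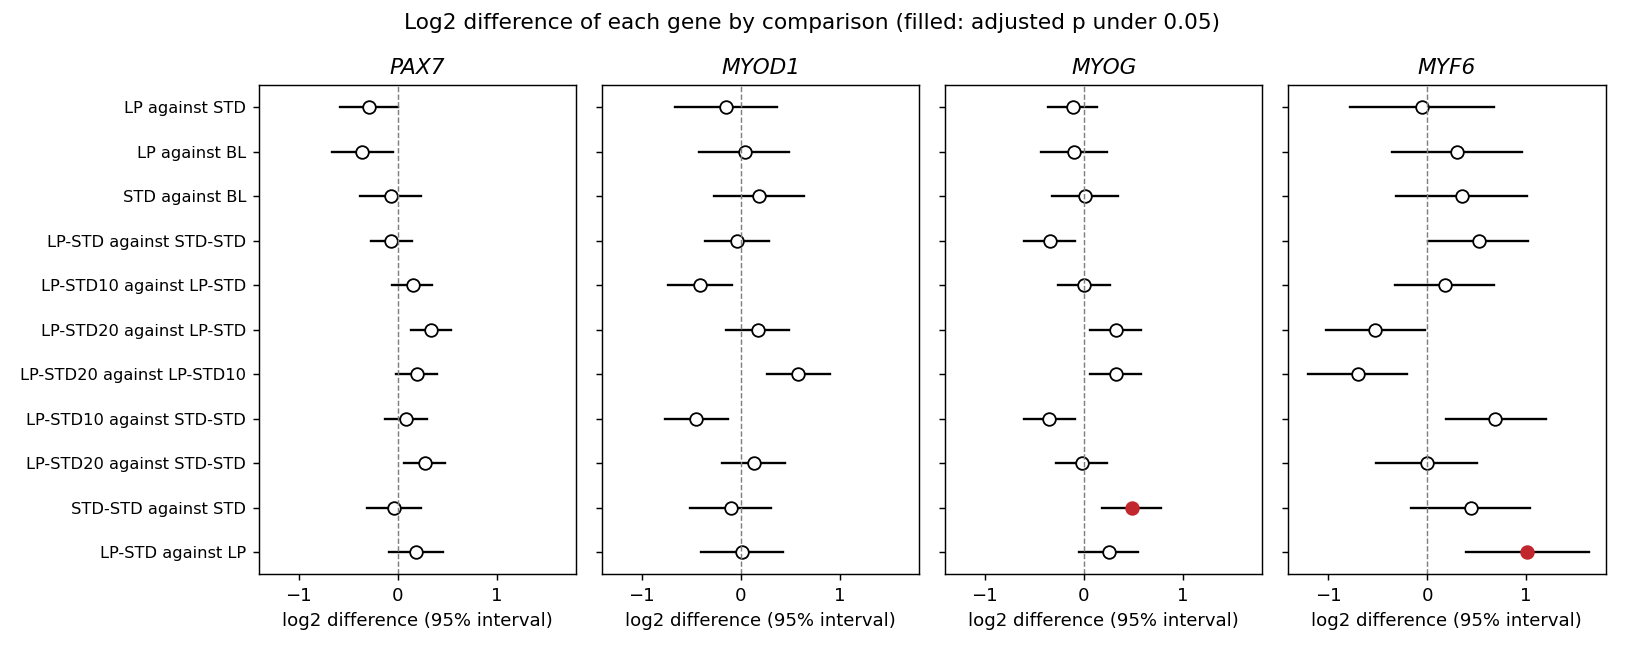
Log2 difference of each gene (x axis, first group named over second, edgeR) with its 95% interval in 11 comparisons. Filled points passed an adjusted p of 0.05, and these are MYOG in STD-STD against STD and MYF6 in LP-STD against LP.

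Across the periods 1 member passed in each line of pigs, and not the same one. Pigs kept on the standard diet had higher MYOG in STD-STD, 99.3 ± 20.0 CPM, than in STD, 71.2 ± 12.0 CPM (0.48 ± 0.15, interval 0.18 to 0.78, adjusted p = 0.0213). MYOG lay above the highest STD library in 8 of 12 STD-STD libraries. It was 1 of 4 members called where 15.9% of all genes were called (8.01% higher), so the share of members called is read against that. The call was lost in limma voom without STD replicate 5 (adjusted p = 0.0841) or 6 (0.0633). In edgeR it was lost without the first (0.0598) or second (0.0626) run of STD-STD, and with counts summed over runs (0.50, adjusted p = 0.093). Differences for STD-STD over STD were 0.44 ± 0.30 for MYF6 (interval -0.16 to 1.04, adjusted p = 0.345), -0.10 ± 0.20 for MYOD1 and -0.04 ± 0.14 for PAX7. The MYF6 difference was 0.87 ± 0.31 without STD replicate 2 (edgeR, adjusted p = 0.0516), 0.69 without the third STD-STD run (0.135) and 0.26 without the first (0.66).

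Pigs moved from the LP diet to the standard diet had higher MYF6 in LP-STD, 103.5 ± 41.1 CPM, than in LP, 51.4 ± 13.6 CPM (1.01 ± 0.31, interval 0.39 to 1.63, adjusted p = 0.0161). MYF6 lay above the highest LP library in 9 of 12 LP-STD libraries. Here too 1 of 4 members was called, where 17.8% of all genes were (8.78% higher). The MYF6 call was kept without any single library (limma voom). In edgeR it was lost without the second LP-STD run (0.76, adjusted p = 0.112) and with counts summed over runs (1.02, adjusted p = 0.102). MYOG was 0.25 ± 0.15 higher in LP-STD (interval -0.05 to 0.55, adjusted p = 0.258), and without the first LP-STD run it passed (0.48, adjusted p = 0.0168). With each LP-STD run left out in turn MYOG lay between 0.05 and 0.48 (edgeR, adjusted p 0.0168 to 0.868). PAX7 (0.18 ± 0.14) and MYOD1 (0.01 ± 0.20) had intervals that include 0.

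The interaction asks whether the period difference in the LP line exceeds that in the standard line. No member passed it (0.163% of genes passed), with 0.57 ± 0.42 for MYF6 (interval -0.27 to 1.41), -0.23 ± 0.21 for MYOG (-0.65 to 0.19), 0.23 ± 0.19 for PAX7 and 0.11 ± 0.29 for MYOD1. A call in 1 line and not in the other was thus not matched by a passing test of the difference between the lines. Without STD replicate 2 the MYF6 interaction was 0.14 ± 0.41 (adjusted p = 0.963), and edgeR called 0 genes in place of 22, with 1033 at an unadjusted p under 0.05. Without 1 second-period run it lay between 0.32, with the second LP-STD run left out, and 0.85, with the third left out. Period and age cannot be told apart here, and the first-period libraries belong to none of the runs.

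Genes around the members were counted in lists that were chosen with earlier results of these data known. Counts of each list are read against the 17.8% of all genes called in LP-STD against LP and the 15.9% called in STD-STD against STD. Among the 6 lists described next, the called share lay above the first for the partners alone, and above the second for the inhibitors, the differentiation and fusion genes and the denervation response genes. It lay below them for the satellite cell and Notch genes in both comparisons, for the inhibitors, the differentiation and fusion genes and the denervation response genes in LP-STD against LP, and for the partners in STD-STD against STD. Of 16 partners of the factors (E-proteins, MEF2, EYA, PITX and other homeobox genes) 2 passed as higher and 4 as lower in LP-STD against LP, and 0 and 2 in STD-STD against STD. TCF3, the E-protein that pairs with the factors, fell in STD-STD against STD (-0.34 ± 0.09, adjusted p = 0.00724). PITX3, a homeobox gene of the muscle lineage, fell in both (-0.79 ± 0.23 in LP-STD against LP and -0.72 ± 0.24 in STD-STD against STD). Of 16 inhibitors of the factors 1 rose in LP-STD against LP, the Notch target HEY1 (0.49 ± 0.15). In STD-STD against STD 3 rose and 1 fell. BHLHE40, a helix-loop-helix repressor that is also under clock control (1.18 ± 0.28, adjusted p = 0.00244), ID4, which binds E-proteins without binding DNA (0.86 ± 0.26), and HES1, a Notch target (0.58 ± 0.19), rose. HDAC4, a deacetylase that holds MEF2 in check, fell (-0.39 ± 0.12). Of 17 Notch pathway genes 1 rose in each, HEY1 in LP-STD against LP and HES1 in STD-STD against STD.

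Of 19 differentiation and fusion genes 5 rose and 3 fell in STD-STD against STD, with a median of 0.13 against -0.01 over all genes. TNNT2, a troponin T of heart and developing skeletal muscle, averaged 67.6 ± 72.8 CPM in STD-STD and 8.05 ± 3.8 CPM in STD (3.07 ± 0.81, adjusted p = 0.00581). MYL4, an embryonic and atrial myosin light chain, averaged 6.42 ± 10.7 CPM in STD-STD and 0.291 ± 0.401 CPM in STD (4.46 ± 1.25). The SD of both exceeded the mean in STD-STD, where TNNT2 ran from 8.69 to 250.5 CPM, against 4.06 to 14.7 CPM in STD. Desmin (DES, -0.65 ± 0.13) and caveolin 3 (CAV3, -0.45 ± 0.12), both of mature fibres, fell. In LP-STD against LP 1 rose and 2 fell, MYL4 by 3.66 ± 1.25 upward, and ACTC1, the cardiac and fetal actin, with 160.4 ± 109.7 CPM in LP-STD and 810 ± 358 CPM in LP (-2.34 ± 0.43, adjusted p = 7.87e-05).

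Of 15 genes known to respond to denervation, MYOG itself not counted, 3 rose and 1 fell in STD-STD against STD, and 2 rose in LP-STD against LP. Those that rose in STD-STD were the acetylcholine receptor subunits CHRND (1.71 ± 0.52, adjusted p = 0.0165) and CHRNA1 (1.39 ± 0.47) and the transcription factor RUNX1 (1.41 ± 0.46). HDAC4 was the one that fell (-0.39 ± 0.12). The STD-STD libraries were widely spread, at 20.1 ± 20.4 CPM for CHRND, 72.7 ± 52.4 CPM for CHRNA1 and 13.2 ± 7.04 CPM for RUNX1. In STD these were 6.16 ± 1.42, 27.8 ± 5.23 and 4.97 ± 4.01 CPM. NCAM1, a cell adhesion molecule of satellite cells and of fibres without a nerve, averaged 53.7 ± 13.8 CPM in LP-STD and 27.2 ± 3.48 CPM in LP (0.98 ± 0.22, adjusted p = 0.00111), and the myosin-binding protein MYBPH rose too (1.05 ± 0.30). Medians of this list were 0.38 in STD-STD against STD and 0.39 in LP-STD against LP, against -0.01 and -0.03 over all genes. Among 19 satellite cell genes 2 rose in LP-STD against LP (NCAM1 and HEY1), and 1 rose (ITGA7, an integrin, 0.29 ± 0.11) and 1 fell (the homeobox gene BARX2, -1.36 ± 0.31) in STD-STD against STD. In LP against STD 0 genes of these lists passed, as over the whole table, and in LP-STD10 against LP-STD 1 Notch gene alone passed.

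Other genes and cell type markers moved with the periods as well. In LP-STD against LP 17 of 21 cell division genes fell (median -0.97), 11 of 17 immediate early genes rose, 8 of 8 slow fibre markers and 7 of 11 fibroadipogenic markers fell and 3 of 9 fast fibre markers rose. Of 17 clock genes 2 rose and 1 fell there, and 0 passed in STD-STD against STD. Slow fibre markers summed to 3296 to 7101 CPM (median 4430) in LP-STD and 5532 to 11983 CPM (median 7038) in LP. Fibroadipogenic markers summed to 3641 to 8039 CPM (median 5263) in LP-STD and 6882 to 12313 CPM (median 10098) in LP. In STD-STD against STD 12 of 17 immediate early genes rose, 7 of 21 cell division genes fell and 0 of 8 slow fibre markers passed. Their sums there were 3269 to 10861 CPM (median 5879) in STD-STD and 5696 to 15247 CPM (median 6037) in STD. The median difference of the slow fibre markers was -0.3 in STD-STD against STD and -0.88 in LP-STD against LP. Of the endothelial, pericyte, adipocyte, macrophage, lymphocyte, Schwann cell and erythroid lists none had more than 2 genes called in either comparison. Both erythroid genes tested fell in LP-STD against LP. ALAS2, the erythroid enzyme of heme synthesis, averaged 0.501 ± 0.228 CPM in LP-STD and 1.53 ± 0.406 CPM in LP (-1.61 ± 0.37, adjusted p = 0.00107). HBM, a globin gene, averaged 0.111 ± 0.0741 CPM in LP-STD and 0.508 ± 0.21 CPM in LP (-2.14 ± 0.53, adjusted p = 0.00269). The myosin heavy chain genes MYH1, MYH2, MYH4 and MYH7 were on the fibre lists but had no entry under those symbols among the genes counted, so they were not analysed. In the interaction of period and first diet 0 of 8 slow fibre, 0 of 9 fast fibre and 0 of 11 fibroadipogenic markers passed. The same held for 0 of 21 cell division and 0 of 17 immediate early genes, so no difference between the lines was established for them. The part of fibre type, cell makeup or handling in the MYOG and MYF6 values was not tested.

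Within the second period 3 of the 4 members passed a test of the runs within groups, while none passed in the 6 comparisons of groups. The test of runs pools all groups, while each comparison takes a pair of groups. These unlike tests thus do not say whether runs or groups differed more. In that single test of runs within all 4 groups (48 libraries) MYF6 (adjusted p = 0.00734), MYOG (0.0317) and MYOD1 (0.0403) passed and PAX7 did not (0.346), where 5.68% of 13032 genes passed. Within LP-STD alone MYOG passed (adjusted p = 0.0139, where 1.73% of genes passed). MYOG was 56.3, 53.6, 53.9 and 50.3 CPM in the 4 libraries of the first LP-STD run, below every other LP-STD library (71.3 to 126 CPM). It was the only run among the 12, for any member, whose range did not overlap that of the other libraries of its group. Such runs were not counted over all genes, so how unusual this is cannot be said. No member passed within STD-STD, LP-STD10 or LP-STD20 alone (0.0384%, 2.14% and 0.599% of genes passed), where MYF6 came to an adjusted p of 0.0761 in LP-STD10.

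MYF6 had means of 113, 136 and 61.0 CPM in the 3 runs of LP-STD, 164, 115 and 71.6 CPM in those of LP-STD10, and 89.0, 80.9 and 46.3 CPM in those of STD-STD. In LP-STD20 they were 56.0, 60.3 and 99.1 CPM, the third raised by 1 library at 186 CPM beside 61.9, 75.8 and 72.7 CPM. The third run was thus lowest in 3 groups and highest in LP-STD20. MYOD1 means were 37.0, 53.3 and 58.0 CPM in LP-STD, 34.9, 31.7 and 44.8 CPM in LP-STD10, 69.1, 51.0 and 46.4 CPM in LP-STD20 and 45.5, 64.9 and 41.4 CPM in STD-STD. No run number was highest in all 4 groups for MYOD1. Across sets, with group in the fit, no member passed (0.552% of genes passed), and the third set minus the first was -0.52 ± 0.21 for MYF6 (adjusted p = 0.275), 0.19 ± 0.08 for PAX7, 0.16 ± 0.11 for MYOG and 0.07 ± 0.14 for MYOD1.

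**Figure D3:**
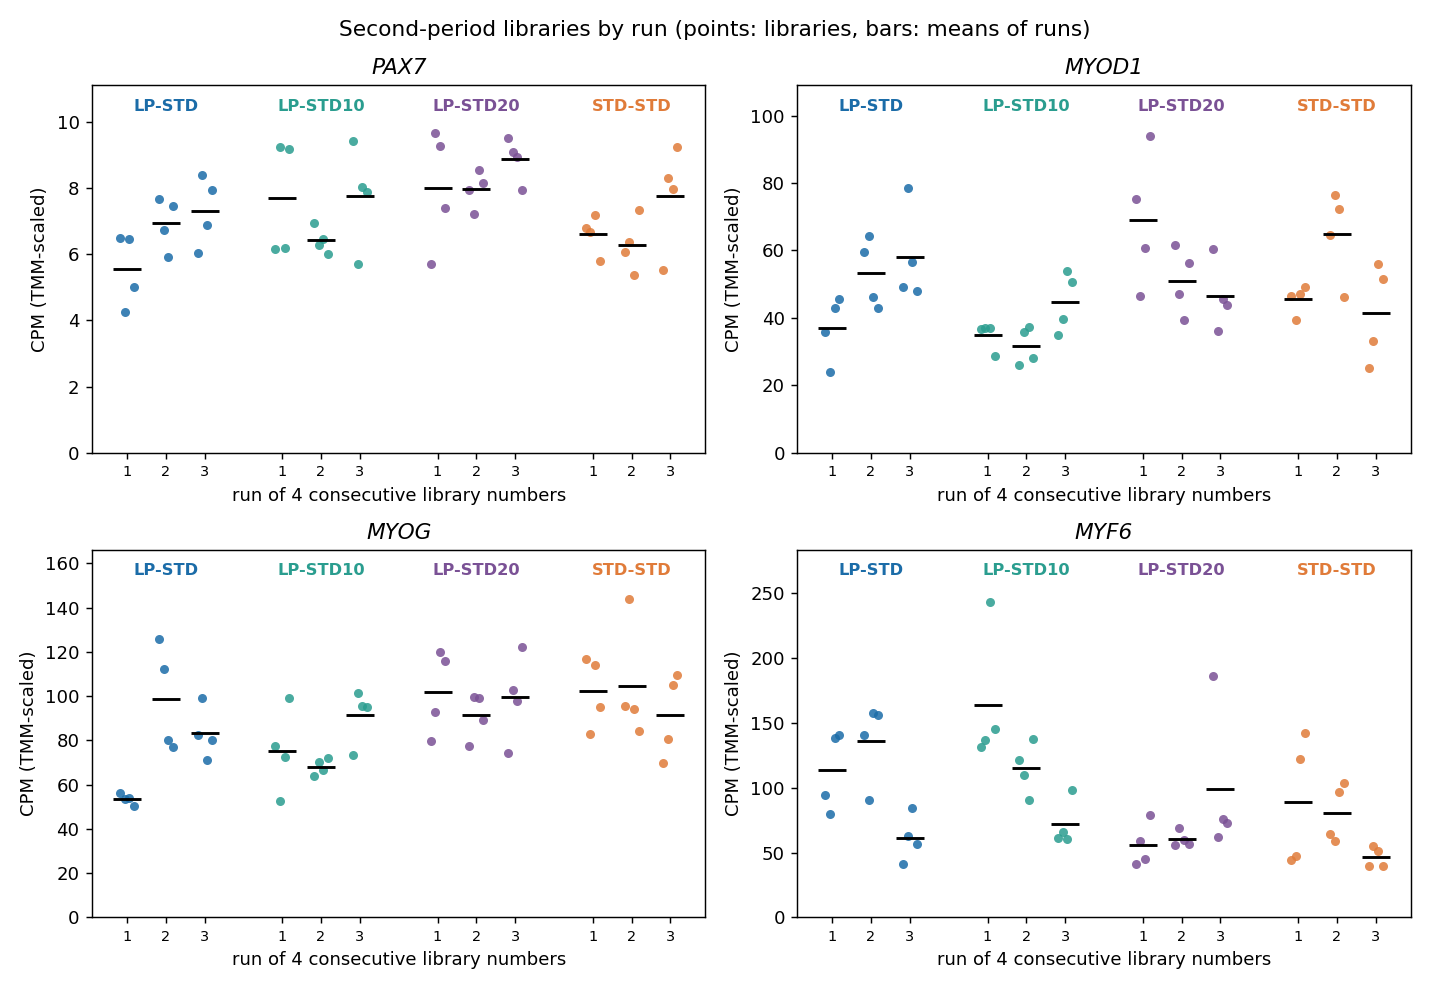
CPM of the 4 genes (y axes from 0) in the second-period libraries, grouped by the 3 runs of 4 consecutive library numbers of each group, with the mean of each run as a bar. MYOG in the first LP-STD run lies at 50.3 to 56.3 CPM, below all other LP-STD libraries, and MYF6 falls to its lowest run means in the third runs of LP-STD, LP-STD10 and STD-STD.

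Of the sum of squares of log2 CPM in the 48 second-period libraries, runs within groups held 40.4% for MYF6, 34.5% for MYOD1, 34.4% for MYOG and 22.1% for PAX7, and groups held 23.2%, 22.3%, 24.7% and 21.4% in the same order. For the median gene runs held 20.3%, groups 7.52% and libraries within runs 70.4%. For MYF6 the libraries within runs held 36.4%. The shares are not scaled by the number of groups, runs or libraries. Runs outnumber groups, so a larger share for runs is expected even where neither has an effect. Whether runs or groups differed more can thus not be read from the shares. Each member held a larger share than the median gene both between runs and between groups.

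**Figure D4:**
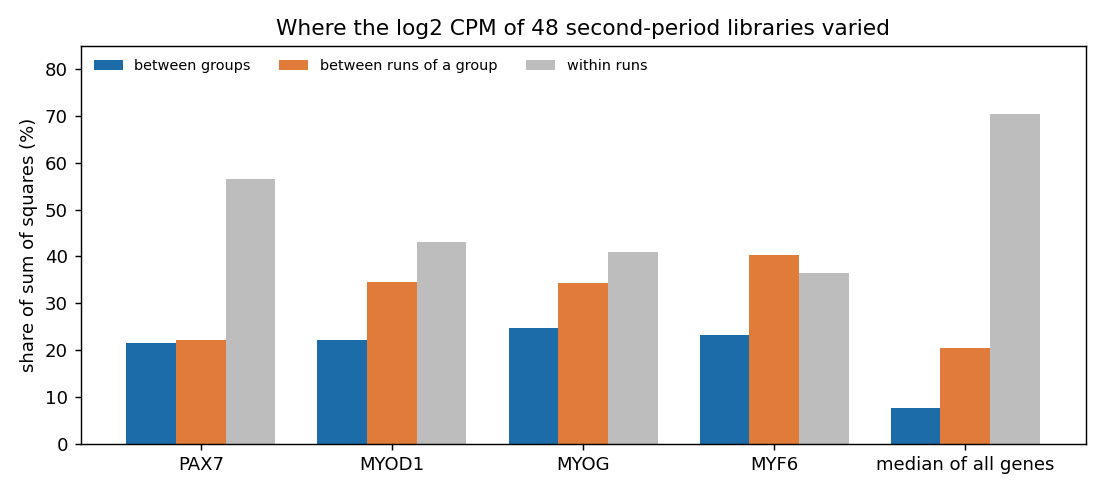
Share of the sum of squares of log2 CPM (y axis, percent) that lay between the 4 second-period groups, between runs of a group and within runs, for each gene and for the median of all genes. For MYF6 40.4% lay between runs, against 20.3% for the median gene. Shares are not scaled by the number of groups, runs or libraries, so those of runs and of groups are not compared in size.

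Genes that respond to time of day or to handling, and genes of other lists, also differed between runs. In the same test 10 of 17 clock genes passed, led by the clock output factors TEF (adjusted p = 3.27e-05) and DBP (0.000137) and the repressor NR1D2 (3.43e-05). So did 6 of 17 immediate early genes, such as NR4A3 (0.00242) and CCN2 (0.00739), and 5 of 15 denervation response genes, such as ANKRD1 (0.000732), the ubiquitin ligase TRIM63 (0.0176) and MUSK, the receptor kinase of the synapse (0.0297). Over all genes 5.68% passed. Of the other lists, 2 of 16 partners, 2 of 16 inhibitors, 2 of 17 Notch pathway genes and 2 of 19 satellite cell genes passed. So did 1 of 19 differentiation and fusion genes and 0 of 21 cell division genes. None of the listed fibre type, endothelial, pericyte, fibroadipogenic, adipocyte, macrophage, lymphocyte, Schwann or erythroid markers passed (edgeR, lowest adjusted p 0.0794). DBP averaged 17.5, 8.46 and 22.2 CPM in the 3 runs of LP-STD, 11.4, 30.5 and 13.1 CPM in LP-STD10, 11.5, 25.0 and 13.1 CPM in LP-STD20 and 14.8, 8.90 and 16.8 CPM in STD-STD. Its second run was lowest in LP-STD and STD-STD and highest in LP-STD10 and LP-STD20. MYOG had means of 53.5, 98.8 and 83.2 CPM in the 3 runs of LP-STD, 75.4, 68.2 and 91.3 CPM in LP-STD10, 102.0, 91.5 and 99.4 CPM in LP-STD20 and 102.3, 104.4 and 91.3 CPM in STD-STD. The second run of MYOG was thus highest in LP-STD and STD-STD and lowest in LP-STD10 and LP-STD20, the reverse of DBP for that run alone. The full order of runs was not reversed in LP-STD or LP-STD10. In LP-STD MYOG was lowest in the first run, where DBP lay between its other runs. In LP-STD10 MYOG was highest in the third run, and there too DBP lay between its other runs. The MYOG runs passed a test in LP-STD alone (edgeR, adjusted p = 0.0139), with 0.300 in LP-STD10, 0.883 in LP-STD20 and 0.999 in STD-STD. Their order in the groups that did not pass is thus not established. The second run of MYOD1 was neither highest nor lowest in LP-STD and LP-STD20, nor was that of MYF6 in LP-STD10, LP-STD20 and STD-STD. The part of sampling time in the members' values was not tested.

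Among themselves the members were loosely related. With group means removed (67 libraries), Pearson's r of log2 CPM was 0.50 between MYOD1 and MYOG (Spearman's rho 0.40) and between -0.17 and 0.26 in the other 5 pairs. The MYOD1 and MYOG relation had a permutation p of 5e-05 (adjusted over 6 pairs 0.0003), with libraries shuffled within groups, and 0.00642 after adjustment for rho. It was 0.43 without the 2 libraries farthest from the MYOD1 median, and within the 48 second-period libraries it was 0.49 with group means removed and 0.28 with run means removed. With libraries shuffled within runs the 0.28 had a permutation p of 0.0924 (adjusted over 6 pairs 0.399), so the relation did not pass within runs. PAX7 and MYOG came to 0.26 (adjusted p = 0.144, permutation test), and 0.13 with run means removed. The values of MYF6 with PAX7 (0.05), MYOD1 (-0.15) and MYOG (-0.17) did not pass (permutation test, adjusted p 0.391 to 0.659).

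The genes most like each member were ranked by Pearson's r of log2 CPM over the 67 libraries, among 10167 genes, as a description. For MYF6 they were XIRP1 (0.876), the calcineurin inhibitor RCAN1 (0.810), the deubiquitinase OTUD1 (0.758), the matricellular protein CCN2 (0.751) and the transcription factor ETS2 (0.740). XIRP1 stayed at 0.844 with group means removed and 0.84 with run means removed. XIRP1 averaged 688 ± 431 CPM in LP-STD and 127.6 ± 38.5 CPM in LP (2.43 ± 0.62, adjusted p = 0.00385), and 469 ± 380 CPM in STD-STD and 412 ± 487 CPM in STD (0.19 ± 0.55, adjusted p = 0.870). In STD, replicate 2 had 1385 CPM and the other 5 libraries 78.1 to 363 CPM, and without replicate 2 the difference of STD-STD over STD was 1.11 ± 0.59 (edgeR, adjusted p = 0.22). Its run means were 958, 862 and 245 CPM in LP-STD and 1377, 550.0 and 450.3 CPM in LP-STD10, and the third run was lowest in both, as for MYF6. The LP-STD20 library with 186 CPM of MYF6 had 3729 CPM of XIRP1, the highest of the study. With group means removed the leading genes of MYF6 were XIRP1, RCAN1, PPP1R15A (0.692), ETS2 and HABP2 (0.683).

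For MYOG the closest were TNNT2 (0.804), the kinase DCLK1 (0.801), the AMP deaminase AMPD2 (0.794), the kinase CSK (0.785) and the calcium-binding protein S100A1 (0.781). TNNT2 kept 0.760 with group means removed and 0.84 with run means removed. TNNT2 averaged 5.01 CPM in the first LP-STD run, the one with the lowest MYOG, and 55.5 and 17.9 CPM in the second and the third. DCLK1 was 1.55 ± 0.45 higher in STD-STD than in STD (adjusted p = 0.0119) and 0.46 ± 0.43 higher in LP-STD than in LP (adjusted p = 0.507). S100A1 rose in both, by 2.41 ± 0.48 and 1.66 ± 0.47. With group means removed SEPTIN9 (0.739) took the place of CSK.

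**Figure D5:**
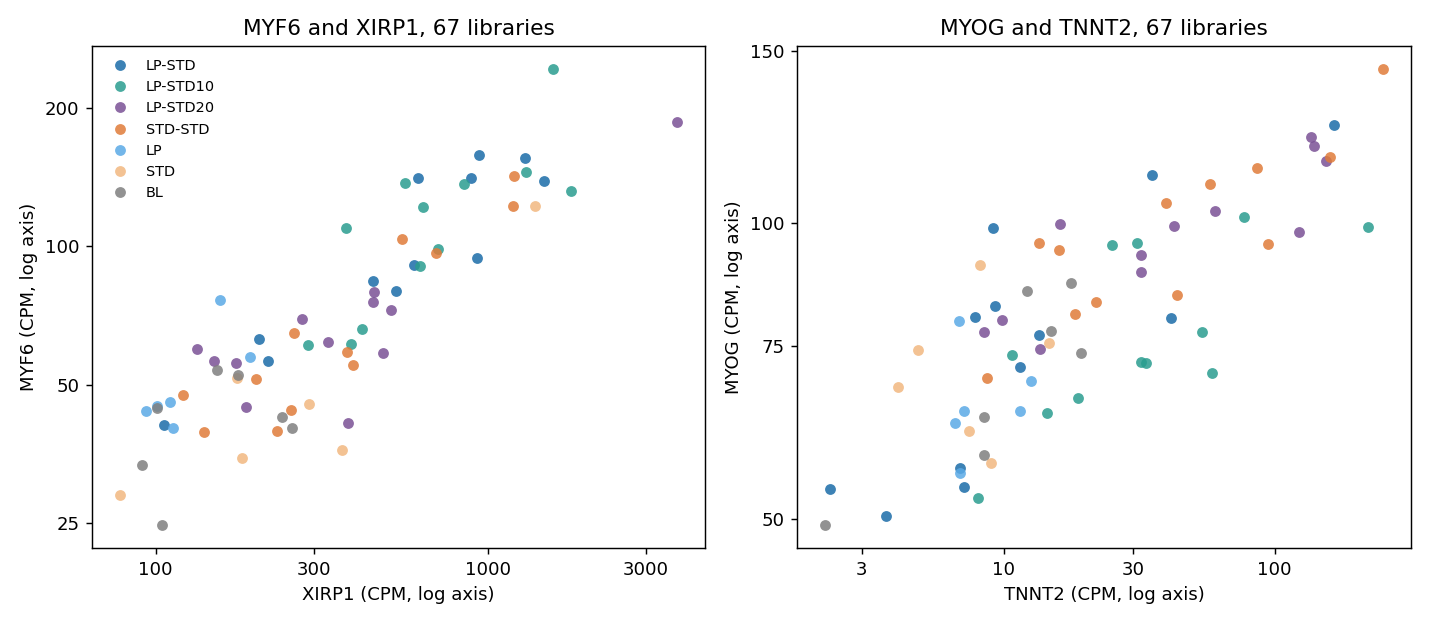
CPM of MYF6 against XIRP1 (left) and of MYOG against TNNT2 (right) in 67 libraries, both axes logarithmic, coloured by group. XIRP1 spans 78.1 to 3729 CPM and rises with MYF6 in all groups together (r = 0.876), and TNNT2 rises with MYOG (r = 0.804).

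MYOD1 and PAX7 had weaker likenesses. For MYOD1 the leading genes were GRIP2 (0.607), DYRK2 (0.584), CSTF3 (0.577), CXXC5 (0.570) and MRTFA (0.543), the last a coactivator of serum response factor, and they came to 0.01 to 0.30 with run means removed. These 5 genes all passed the test of runs (adjusted p 0.000732 to 0.0325). With group means removed MRTFA (0.631), RALGDS (0.624), CXXC5 (0.623), TNK2 (0.610) and CSK (0.605) led. For PAX7 they were HIPK4 (0.521), CDK5RAP2 (0.495), NECTIN1 (0.473), ITGA7 (0.460) and MSC (0.456), the last 2 an integrin of muscle and a helix-loop-helix repressor of muscle progenitors. None of the 5 passed the test of runs, as PAX7 did not. With group means removed CDK5RAP2 (0.518) led, followed by CACNG8 (0.50), ABI3BP, AFAP1L2 and OLFML2B (0.497 to 0.499).

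MYF5, the early factor of the family, is no member and is named after its values were seen. It was low, at 25 to 356 counts per library, and was not called in any of the comparisons, with 0.79 ± 0.32 in STD-STD against STD (adjusted p = 0.0779) and -0.21 ± 0.30 in LP-STD against LP.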

How the data were processed

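RNA of longissimus dorsi muscle was sequenced in 67 libraries, and the authors deposited a table of raw, whole-number counts for each gene symbol. The submitters' processing notes name Sscrofa11.1 as build and list DESeq2. For the aligner, the counter and its strand setting, sources used here give nothing. Groups were taken from library titles and runs from the library numbers in their descriptions. Replicates are separate pigs, per the design text.

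The test was edgeR's robust quasi-likelihood F test (edgeR 4.0.16, R 4.3.3) after filterByExpr and TMM, adjusted by Benjamini-Hochberg over all genes of a fit with a threshold of 0.05. LP against STD used 12 libraries (12584 genes), second-period comparisons 48 (13032 genes) and the others 67 (13517 genes). Log2 differences carry their SE and 95% intervals, CPM values their SD, and correlations use log2 CPM with a prior count of 2. Permutation tests were two-sided with 100000 permutations within groups, in Python 3.11.15 (numpy 2.4.6), and figures used matplotlib 3.10.9. Total counts were 26680567 to 36935497, and the highest correlation of 2 libraries over genes was 0.986, so none were merged.

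The members and lists were chosen with earlier results of these data known. Named genes were the 4 members, up to 4 passing genes of each list with the lowest p (2 where none passed), and the 5 genes of highest correlation with each member (symbols other than LOC numbers, average log2 CPM of at least 1), with and without group means. Coordinates are from RefSeq, which held 16989 of the symbols. Alternatives were RLE factors, DESeq2 1.42.0, limma 3.58.1 voom with quality weights, no filter, a CPM filter at 1, the replicate number as a block, other libraries in the fit, the set of 16 libraries as a factor, correlated runs, counts summed over runs and each library left out (limma voom). Leaving out each run of 4, leaving out STD replicate 2 with edgeR and permuting within runs were added after seeing the data. The scripts were tested on simulated data in which 200 genes changed.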

Additional observations from a re-analysis of the deposited data

Results flagged for a closer look

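MYF6 in STD replicate 2, at 122 CPM, stood apart from the other 5 STD libraries, which lay between 28.7 and 51.6 CPM, by Dixon's test of the highest value (gap over range 0.754 against a critical value of 0.625). In the same library XIRP1 was at 1385 CPM, RCAN1 at 43.0 CPM and ETS2 at 32.8 CPM, against 78.1 to 363 CPM, 19.1 to 30.7 CPM and 25.0 to 31.8 CPM in the other STD libraries, while OTUD1 (50.8 CPM) and CCN2 (9.38 CPM) lay within their range. Among the 12 combinations of member and group tested this way in BL, LP and STD it was the only one, and chance flags about 1 in 20 groups. Without it MYF6 in STD against BL came to -0.08 ± 0.33, against 0.35 ± 0.33 with it (log2 ± SE, edgeR in both).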

How the results depend on the processing

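Over the alternatives run, 1674 of 1764 member values were counted as keeping their direction and their side of the threshold. A difference that rounded to 0 could not count as reversed, and tests of runs and of the 3 sets were judged by the threshold alone. With runs left out (edgeR), such differences took both signs. MYF6 in LP-STD20 against STD-STD ran from -0.31 to 0.18, and MYOG in LP-STD10 against LP-STD from -0.22 to 0.20. The causes of the changes below were not tested.

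Replicate numbers showed no pairing of LP and STD libraries, where 0 of 6 correlated best with their own number. In the second period pairing was not settled, as same-numbered libraries also belong to the same set. The correlation of same-numbered libraries was -0.21 to 0.05 in LP and STD and -0.41 to 0.38 in the second period. There a library correlated best with its own number in 13 of 72 cases, and 24 of 72 same-numbered pairs had r over 0.1. How many would do so without pairing was not computed. The replicate block changed no member's call. It gave 0.10 for MYF6 in LP against STD, and all-gene counts of 29 for LP-STD20 against LP-STD, 1 for LP-STD20 against LP-STD10 and 7 for the interaction.

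Counts summed over runs ended both calls across periods (MYOG 0.50, MYF6 1.02). Limma voom with quality weights called PAX7 in LP-STD20 against LP-STD (0.34) and turned values near 0, to 0.09 for MYF6 in LP against STD, 0.02 for MYOG in LP-STD20 against STD-STD, 0.01 for MYOD1 in STD-STD against STD, -0.09 for MYOD1 and -0.13 for MYOG in STD against BL, and -0.11 for MYOD1 in LP against BL. Voom without weights gave 0.10 for MYF6 in LP against STD and -0.01 for MYOD1 in LP-STD against LP, as correlated runs did (-0.01). Without STD replicate 2 (edgeR) the interaction had 0 genes called and 1033 at an unadjusted p under 0.05.

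Single libraries were left out with limma voom (STD replicate 2 also with edgeR) and runs with edgeR, so the ranges below also hold differences of method. Without single libraries or runs (log2) the ranges were, for MYOG, 0.41 to 0.55 in STD-STD against STD, 0.05 to 0.48 in LP-STD against LP, -0.54 to -0.13 in LP-STD against STD-STD, 0.10 to 0.51 in LP-STD20 against LP-STD, -0.08 to 0.03 in LP-STD20 against STD-STD and -0.07 to 0.08 in STD against BL. For MYF6 they were 0.76 to 1.29 in LP-STD against LP, -0.04 to 0.38 in LP against STD, -0.15 to 0.43 in LP-STD10 against LP-STD, 0.37 to 0.95 in LP-STD10 against STD-STD and -0.08 to 0.34 in STD against BL, 0.14 to 0.85 in the interaction and 0.26 to 0.87 in STD-STD against STD. For MYOD1 they were -0.32 to 0.06 in STD-STD against STD, -0.11 to 0.20 in LP-STD against LP, -0.07 to 0.33 in the interaction, -0.21 to 0.04 in LP against STD, -0.17 to 0.19 in LP-STD against STD-STD, -0.02 to 0.30 in LP-STD20 against LP-STD, 0.39 to 0.74 in LP-STD20 against LP-STD10, -0.06 to 0.35 in LP-STD20 against STD-STD, -0.01 to 0.28 in STD against BL and -0.11 to 0.15 in LP against BL. For PAX7 they were -0.14 to 0.05 in LP-STD against STD-STD, -0.14 to 0.02 in STD-STD against STD and -0.19 to 0.06 in STD against BL.

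DESeq2 called 130 in LP against STD, 7 in LP-STD against STD-STD, 175 in LP-STD10 against LP-STD, 109 in LP-STD20 against LP-STD, 3 in LP-STD20 against LP-STD10, 148 in LP-STD10 against STD-STD, 19 in LP-STD20 against STD-STD, 77 in the interaction, 1536 between runs, 209 between sets and 158 for the third set minus the first. Voom with quality weights called 1 in LP against STD, 411 in LP-STD20 against LP-STD, 107 in LP-STD10 against STD-STD, 77 in the interaction, 137 between sets and 112 for the third set minus the first. Correlated runs left 5 in LP-STD10 against LP-STD, 1 in LP-STD20 against LP-STD, 12 in LP-STD10 against STD-STD and 0 in the interaction. Sums over runs left 586 in STD-STD against STD, 477 in LP-STD against LP, 1 in LP-STD10 against LP-STD and 0 in LP-STD20 against LP-STD, in LP-STD10 against STD-STD and in the interaction. The set as a factor gave 10 in LP-STD20 against LP-STD. With only the compared groups fitted the counts were 106 for STD against BL, 53 for LP against BL, 3 for LP-STD20 against LP-STD and 52 for the interaction, and with all 67 libraries 1 for LP against STD.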
